A study of Zea mays with 11 samples.

Results

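Cytokinin and two-component signalling genes of maize were followed through kernel development in the inbred line Mo17. The genes were taken by the wording of the Arabidopsis description that the deposited table gives beside each identifier. A gene was included when that description held "cytokinin", "response regulator", "isopentenyltransferase", "histidine kinase" or "histidine phosphotransfer", and not "pseudo-response". This rule found 74 of the 34145 genes in the table. By description they were 8 isopentenyltransferases, 12 cytokinin oxidases, 8 receptor-type histidine kinases, 4 other histidine kinases, 31 response regulators, 6 cytokinin response factors and 5 further genes with cytokinin in their description. The 31 response regulators were split by their Arabidopsis match into 13 type-A, 16 type-B and 2 type-C genes.

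Cytokinins are adenine-derived hormones that promote cell division. Isopentenyltransferases make them, cytokinin oxidases cleave them, and membrane histidine kinases bind them and start a phosphorelay. The phosphate passes through histidine phosphotransfer proteins to response regulators in the nucleus, where type-B regulators are DNA-binding activators and type-A regulators are rapidly induced proteins that feed back negatively. Maize kernels are known to hold most cytokinin early after pollination, when endosperm cells divide.

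Plants were field-grown and self-pollinated on a common day. The samples were whole kernels of 3 and 5 days after pollination (DAP), hand-dissected endosperm of 8 stages (7, 9, 10, 11 and 13 DAP, then 15, 20 and 25 DAP), and the ear leaf, taken at 13 DAP. Each of the 11 stages had 1 poly(A) RNA library, all from untreated Mo17, so the spread between plants of a stage was not measured. Levels are FPKM, fragment counts scaled for transcript length and library size, as the authors deposited them. The sequencing depth is unknown, and a value of 0 means that the gene was listed at 0.

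Between 12507 and 18961 genes reached 1 FPKM in a library, with the fewest at 25 DAP. The marker lists of starchy endosperm and leaf had their highest sums in endosperm and leaf. Of the starchy endosperm list, all 7 genes were matched, and their summed level was 12.9 and 22.7 FPKM in kernels, 74.3 at 7 DAP, 20606 at 13 DAP and 5.4 in leaf. The 4 matched leaf genes summed to 1220 FPKM in leaf and to between 1.4 and 32.5 in endosperm. One of them, the pep1 match GRMZM5G899080, went against the list, at 2.52 FPKM in leaf, 22.0 and 15.6 in kernels and 30.7 at 7 DAP, where it made up most of the sum. The floral organ gene zag2, known from carpels and ovules, was on the embryo list. It stood at 84.1 and 66.1 FPKM in kernels, most of the list's summed 85.0 and 66.4 there. In endosperm it stood at 3.03 FPKM at 7 DAP and at most 0.73 from 9 DAP on. Whole kernels include maternal tissue. Among the other embryo genes, lec1 and wus1 stayed at or under 0.46 FPKM in every library. The oleosin gene ole1, which aleurone also expresses, reached 121.5 FPKM at 10 DAP. The storage globulin gene glb1, also on the embryo list, stood between 7.48 and 28.95 FPKM from 10 DAP on. The part of embryo or aleurone RNA in the endosperm libraries was not tested.

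The 74 genes were expressed at low to moderate levels. In no library did 24 of them reach 1 FPKM, 24 peaked between 1 and 5 FPKM, 13 between 5 and 10, and 13 at 10 FPKM or more. Of the 50 genes that reached 1 FPKM, 24 had their highest value in a kernel library, 13 in an endosperm library and 13 in leaf (48.0%, 26.0% and 26.0%). Over all 22845 genes that reached 1 FPKM these shares were 37.5%, 39.2% and 23.3%. The summed level of the 74 genes was 199.1 and 169.1 FPKM in the 3 and 5 DAP kernels, 114.0 in 7 DAP endosperm, 59.7 in 25 DAP endosperm and 218.3 in leaf.

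**Figure D1:**
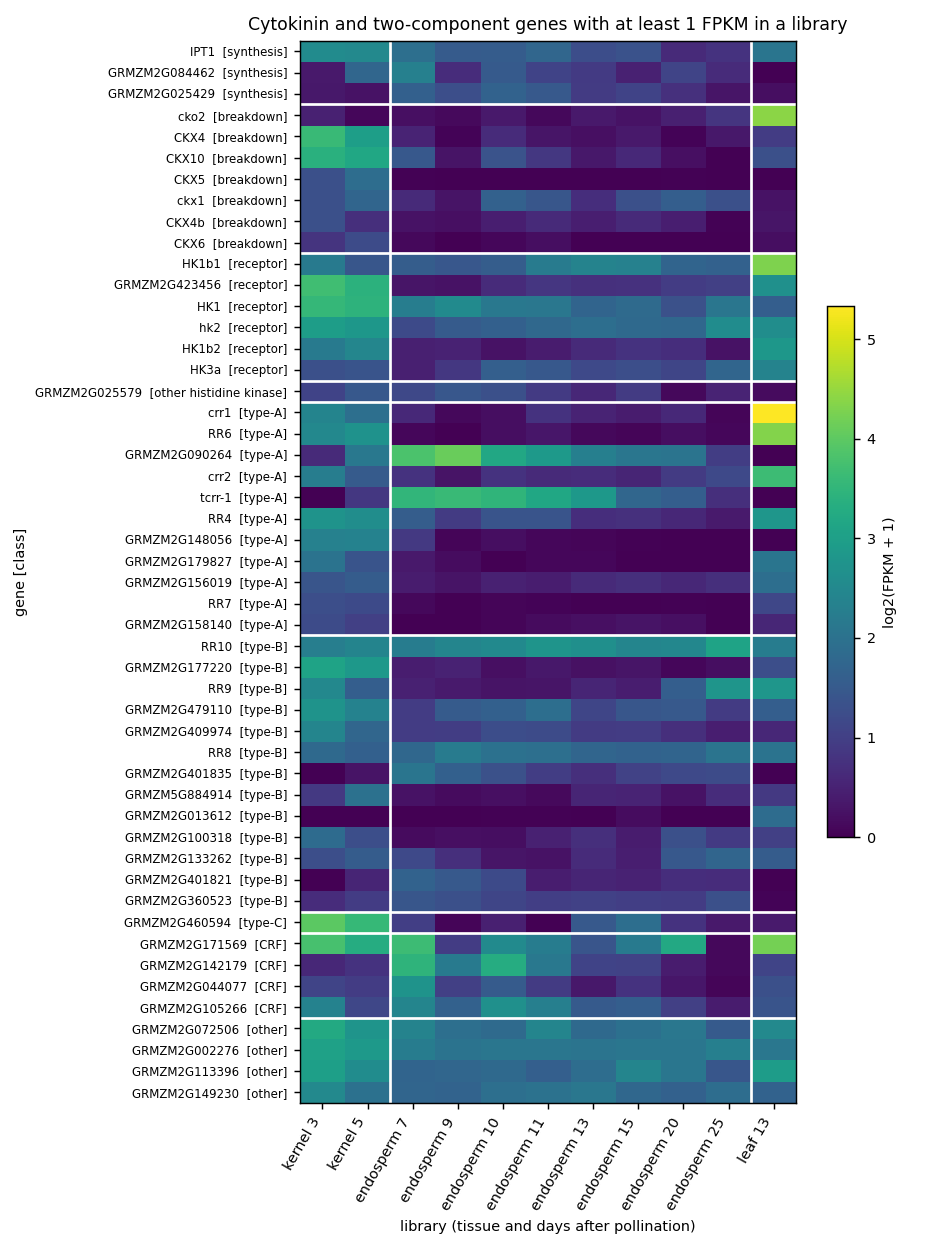
Level of the 50 genes that reached 1 FPKM, as log2(FPKM + 1) by colour, with libraries as columns (tissue and day) and genes as rows grouped by class. The 2 kernel columns and the leaf column are brighter than the endosperm columns for most type-A rows and some receptor rows. The type-A genes tcrr-1 and GRMZM2G090264 are instead bright in early endosperm and dark in leaf.

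The classes differed in where their level lay. Isopentenyltransferases summed to 9.84 FPKM at 7 DAP, their highest library, and to 1.56 at 25 DAP. Cytokinin oxidases summed to 26.6 and 22.4 FPKM in kernels and 24.2 in leaf, but to between 0.74 and 5.18 in the 8 endosperm libraries. Receptor-type kinases summed to 38.7 and 34.7 FPKM in kernels, 42.0 in leaf and between 8.31 and 14.6 in endosperm. In these 2 classes the endosperm libraries did not overlap the kernels and leaf. Type-A regulators summed to 30.98 and 29.9 FPKM in kernels, 28.4 at 7 DAP, 3.99 at 25 DAP and 83.9 in leaf. Type-B regulators stayed within a narrower range, from 13.7 FPKM at 15 DAP to 34.0 in the 3 DAP kernel.

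**Figure D2:**
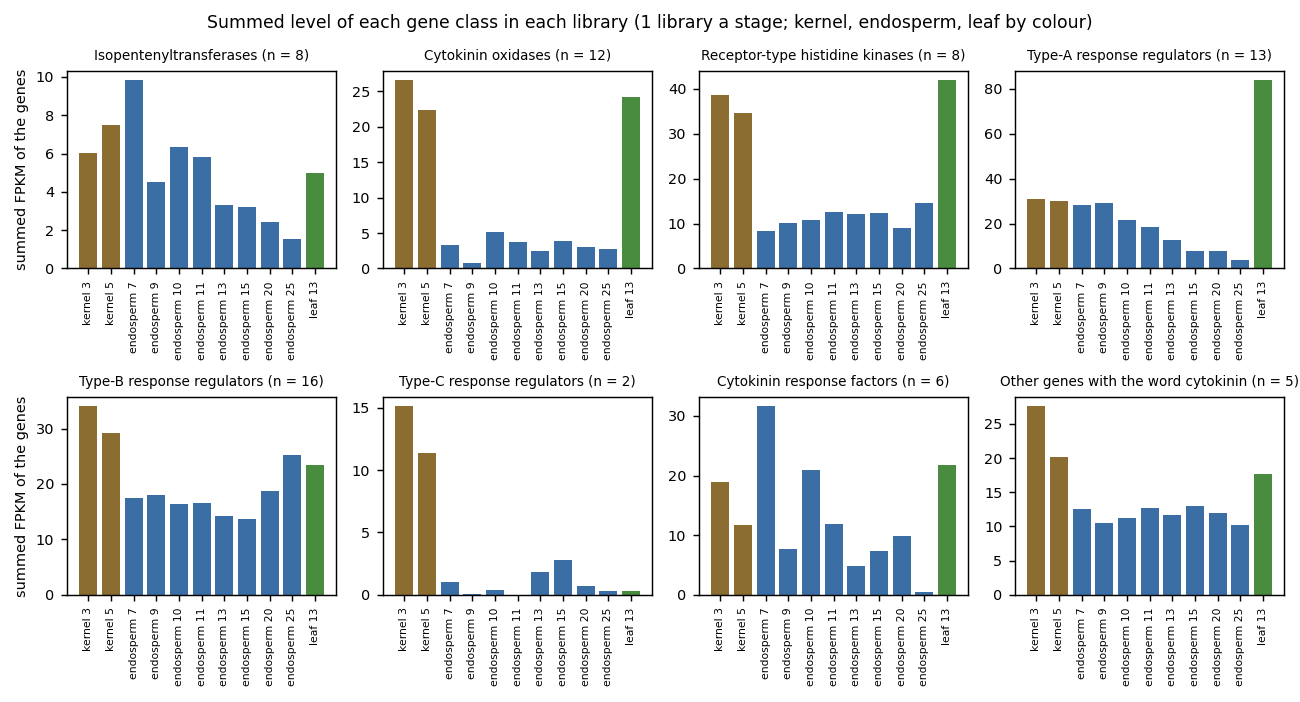
Summed FPKM of each class other than the low histidine kinases outside the receptors (vertical axis from 0, a separate scale per panel) in each library (bars: kernels brown, endosperm blue, leaf green). The oxidase and receptor bars of endosperm lie below those of kernel and leaf, the type-A bars of endosperm are highest on day 9 (29.2 FPKM) and lowest on day 25 (3.99 FPKM), and the type-B bars stay between 13.7 and 34.0 FPKM.

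Change with endosperm age was tested as the slope of log2(FPKM + 1) per day over the 8 endosperm libraries, with limma across the 15149 genes that averaged 1 FPKM or more there, and Benjamini-Hochberg adjustment at 0.05. Of the 74 genes, 25 passed this filter. The linear test called 8 of the 25 as falling (32.0%, against 37.4% of all genes tested) and 2 as rising (8.0%, against 10.3%), so both shares lay near those of the whole table. At an unadjusted p under 0.05 the numbers were also 8 and 2. The median slope was -0.029 per day for the 25 genes and -0.034 for all genes. A curved test, a joint limma test of linear and squared day terms, called 11 of 25 (44.0%, against 54.4% of all genes).

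Scaling shifted the balance. The 8 falls and 2 rises of the deposited values were 20.0% rises. With quantile normalization 6 genes rose and 6 fell (50% rises), and with upper quartile scaling 5 rose and 8 fell (38.5%). For all genes the rises were 21.6% of the calls as deposited, 49.1% on quantile-normalized values and 41.8% on upper-quartile-scaled ones. The median change of all genes from 7 to 25 DAP on the fitted line was -0.61 as deposited, -0.02 on quantile-normalized values and -0.16 on upper-quartile-scaled ones, on the log2 scale. Quantile normalization left 6 of the 8 falls called and upper quartile scaling all 8, and both rising genes still rose under each. Marker levels moved with day as well. The summed level of 6 transfer cell markers was 1064 FPKM at 7 DAP and 54.8 at 25 DAP. That of 4 embryo-surrounding region markers was 296.6 and 0.4. The 4 matched aleurone markers summed to 96.3, 177.2 and 16.1 FPKM at 7, 11 and 25 DAP. The embryo sum was 26.8 at 7 DAP and 59.6 at 25 DAP, and the starchy endosperm sum 74.3 and 21128. In such bulk libraries a change in the number of cells of a type and in RNA per cell cannot be told apart.

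**Figure D3:**
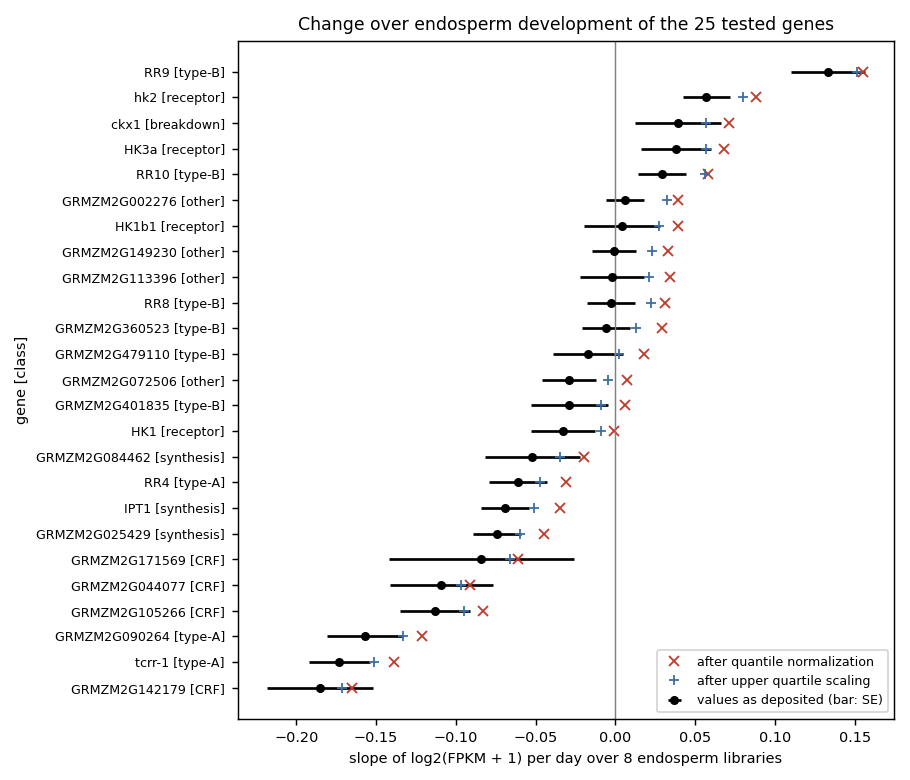
Slope of log2(FPKM + 1) per day (horizontal axis) for the 25 tested genes (rows), as deposited with its SE as a bar, and under quantile normalization (cross) or upper quartile scaling (plus). The 5 lowest slopes are those of 3 response factors and the type-A pair, down to -0.185, and RR9 at 0.133 is the highest; both scalings move every gene to the right.

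Isopentenyltransferase genes, the synthesis step, were low throughout, with 5 of 8 under 1 FPKM in every library. The 5 peaked between 0.02 and 0.85 FPKM. The highest of the class was IPT1 (GRMZM2G097258), the match of Arabidopsis tRNA isopentenyltransferase 2, an enzyme that modifies tRNA and so feeds cis-zeatin formation. It stood at 4.92 and 4.66 FPKM in kernels, at 2.87, 1.87, 1.95, 2.39, 1.39, 1.52, 0.56 and 0.71 FPKM from 7 to 25 DAP, and at 3.19 in leaf. The kernels and leaf were above every endosperm library, and the 20 and 25 DAP libraries were the lowest. IPT1 fell over endosperm (slope -0.069 ± 0.015 SE, adjusted p = 0.0067). The call ended after quantile normalization (adjusted p = 0.086) and when the 20 and 25 DAP libraries were left out (0.13). Over all settings its adjusted p ran from 0.004 to 0.13.

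The other 2 expressed isopentenyltransferases were highest in endosperm. GRMZM2G025429, the match of IPT1 of Arabidopsis, an adenylate-type enzyme, stood at 0.26 and 0.19 FPKM in kernels and 0.14 in leaf. In endosperm it stood at 2.11, 1.44, 2.21, 1.82, 0.89, 1.10, 0.66 and 0.23 FPKM from 7 to 25 DAP. Leaf was thus below every other library, and levels were highest at 7 and 10 DAP. The gene fell (slope -0.074 ± 0.015 SE, adjusted p = 0.0047), a call that ended without the 20 and 25 DAP libraries (0.14; range over settings 0.0036 to 0.14). GRMZM2G084462, the match of IPT3, stood at 0.29 and 2.38 FPKM in kernels and was listed at 0 in leaf. Its endosperm values were 4.0, 0.60 and 1.85 FPKM on days 7, 9 and 10 and between 0.40 and 1.13 later, with no linear call (adjusted p = 0.17). Both genes were picked with their values known.

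Cytokinin oxidase genes, the breakdown step, were largely genes of kernel or leaf. Of the 12, 7 reached 1 FPKM, of which 6 were highest in a kernel library and 1 in leaf. Over all genes that reached 1 FPKM, 37.5% were highest in kernel, 39.2% in endosperm and 23.3% in leaf. CKX4 (GRMZM5G817173) stood at 11.2 and 6.89 FPKM in the 3 and 5 DAP kernels, at 0.44 FPKM at 7 DAP, 0.03 at 9 DAP and at most 0.58 in any endosperm library, and at 0.94 in leaf. The ratio of 7 DAP endosperm to 5 DAP kernel was -2.45 on the log2(FPKM + 1) scale. CKX10 (GRMZM2G348452) was similar in kernels, at 9.42 and 8.09 FPKM, and was at 1.78, 0.21, 1.57 and 0 FPKM in endosperm of days 7, 9, 10 and 25. In both genes the kernels lay above all endosperm libraries.

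The oxidase cko2 (GRMZM2G050997) had another pattern. It stood at 20.1 FPKM in leaf, at 0.41 and 0.07 in kernels and between 0.08 and 0.77 in endosperm, so leaf alone was high. Only ckx1 (GRMZM2G146644), the maize oxidase gene first described from kernels, passed the filter in endosperm. It stood at 1.46 and 2.36 FPKM in kernels and at 0.55, 0.21, 2.15, 1.70, 0.62, 1.45, 2.01 and 1.47 FPKM from 7 to 25 DAP. It had no linear call as deposited (adjusted p = 0.26), and its slope of 0.039 became 0.071 with an adjusted p of 0.033 after quantile normalization. CKX12 (GRMZM2G008792), one of 2 genes of the 74 lower in both kernels than in every endosperm library, did not exceed 0.84 FPKM, at 15 DAP. The other 7 oxidases peaked between 0.05 and 2.72 FPKM, the highest of them CKX5 (GRMZM2G325612), which stood at 1.46 and 2.72 FPKM in kernels and at most 0.02 elsewhere. The genes CKX5, CKX10, ckx1 and CKX12 were picked with their values known.

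Receptor-type histidine kinases, the matches of AHK2, AHK3 and AHK4, were present in every tissue. HK1 (GRMZM2G151223), an AHK4 match, stood at 10.7 and 9.86 FPKM in kernels, at 3.82, 4.89, 3.42, 3.35, 2.30, 2.59, 1.51 and 3.24 FPKM from 7 to 25 DAP, and at 2.0 in leaf. Both kernels were above every endosperm library and above leaf. HK1 had no linear call with all libraries (slope -0.033 ± 0.020 SE, adjusted p = 0.20), but did without the 25 DAP library (0.013) and without 9 and 25 DAP (0.021). GRMZM2G423456, an AHK3 match, stood at 12.0 and 9.68 FPKM in kernels, at 0.23 FPKM at 7 DAP, 0.19 at 9 DAP, no more than 1.0 in any endosperm library, and at 5.37 in leaf. Its ratio of 7 DAP endosperm to 5 DAP kernel, -3.12 on the log2(FPKM + 1) scale, was the lowest of the 74 genes. Whole kernels also hold maternal tissue and embryo, and tissue and day changed together between these 2 libraries, so these cannot be told apart.

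HK1b1 (GRMZM2G155767), another AHK4 match, was highest in leaf, at 18.8 FPKM. It stood at 3.50 and 1.70 FPKM in kernels and at 1.96, 1.73, 1.98, 3.67, 4.20, 4.06, 2.28 and 2.15 FPKM from 7 to 25 DAP. Its endosperm values were highest from 11 to 15 DAP, with no linear call (adjusted p = 0.91) and no curved call (0.14; 0.049 after quantile normalization). Without 20 and 25 DAP its slope was 0.13 and it rose (adjusted p = 0.04). The gene hk2 (GRMZM2G471529), an AHK3 match, was the receptor that rose in endosperm (slope 0.057 ± 0.015 SE, adjusted p = 0.015), and was chosen after its values were seen. It stood at 6.78 and 6.10 FPKM in kernels, at 1.29, 1.87, 2.12, 2.47, 2.78, 2.53, 2.42 and 4.99 FPKM from 7 to 25 DAP, and at 5.10 in leaf. The 7 DAP value was the lowest and the 25 DAP value the highest, and the call ended without either (adjusted p = 0.055 and 0.19). Leaving out 20 with 25 DAP (0.083) or 9 with 25 DAP (0.25) ended it too, and the lowest adjusted p of any setting was 0.0029. The fourth tested receptor, HK3a (GRMZM2G158252), an AHK2 match, was not called as deposited (slope 0.038, adjusted p = 0.18), but was after quantile normalization (0.021) and upper quartile scaling (0.044). Of the 4 receptors outside the test, GRMZM2G423456 is given above, HK1b2 (GRMZM5G833140) stood at 3.53 and 4.43 FPKM in kernels, 6.04 in leaf and at most 0.72 in endosperm, and the others did not exceed 0.69 FPKM.

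The 4 histidine kinases outside the cytokinin receptors stayed low. GRMZM2G025579, the match of AHK5, a cytosolic kinase of stress and ethylene responses in Arabidopsis, was the highest, at 1.77 FPKM in the 5 DAP kernel and 1.71 at 9 DAP. It stood at 0.12 FPKM in leaf and 0.08 at 20 DAP. The 3 matches of CKI1, a kinase known from the female gametophyte and early endosperm of Arabidopsis, did not exceed 0.23 FPKM in any library.

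The wording of the rule matched no phosphotransfer protein, since the table spells their descriptions in another way. They are given here, outside the 74, because they link receptors to regulators, and were added after the data were seen. HP1 (GRMZM2G016439) stood at 29.9 and 28.7 FPKM in kernels, at 76.9, 78.4, 45.0, 34.4, 3.45, 3.33, 3.06 and 1.35 FPKM from 7 to 25 DAP, and at 14.5 in leaf. HP3 (GRMZM2G451604) stood at 11.4 and 14.6 FPKM in kernels, at 48.7, 42.3, 28.3, 29.2, 2.83, 4.13, 2.60 and 1.30 FPKM from 7 to 25 DAP, and at 7.84 in leaf. In both genes the 4 libraries from 7 to 11 DAP lay above all later ones, with a step between 11 and 13 DAP. Both exceeded every one of the 74 genes at 7 DAP. Of the 6 phosphotransfer genes 3 were tested and 3 fell, against 37.4% of all genes tested. The falls were HP1 at a slope of -0.310 ± 0.059 SE (adjusted p = 0.0033), HP3 at -0.268 ± 0.049 (0.0029) and hp2 (GRMZM2G014154) at -0.074 ± 0.017 (0.008). The HP1 and HP3 calls held in all 16 alternative settings, and that of hp2 ended after quantile normalization (0.059) and without 25 DAP, among others (highest adjusted p 0.13). GRMZM2G039246, an AHP4 match, stood at 17.4 FPKM in leaf and at most 0.15 elsewhere.

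Type-A response regulators, the negative feedback arm, split between an endosperm pair and genes of leaf and kernel. The first of the pair was tcrr-1 (GRMZM2G016145), known as the transfer cell response regulator of maize, and the second GRMZM2G090264, like tcrr-1 a match of Arabidopsis ARR3. The tcrr-1 transcript was listed at 0 in the 3 DAP kernel and in leaf, and stood at 0.81 FPKM in the 5 DAP kernel. In endosperm it stood at 10.4, 11.3, 10.2, 8.08, 6.13, 2.39, 2.03 and 0.64 FPKM from 7 to 25 DAP. The level was thus on a plateau from 7 to 10 DAP and lower in each later library. It fell (slope -0.173 ± 0.019 SE, adjusted p = 0.00067), and the call held in all 16 alternative settings (0.00053 to 0.014).

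GRMZM2G090264 stood at 0.55 and 3.37 FPKM in kernels and was listed at 0 in leaf. In endosperm it stood at 13.1, 16.3, 8.22, 6.37, 3.92, 3.24, 3.17 and 0.97 FPKM from 7 to 25 DAP. The 7 and 9 DAP libraries lay above all others, and leaf below all others. It fell (slope -0.157 ± 0.024 SE, adjusted p = 0.0016) in all 16 alternative settings (0.0007 to 0.011). Both genes also passed the curved test (adjusted p = 0.00073 and 0.0017). No gene sequences were used, so whether the authors' mapping shared reads between the 2 genes was not tested. If it did, how each level divides between them is uncertain.

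As a sum, markers of the transfer cells, the basal layer through which the endosperm takes up nutrients, followed a similar course. Of 10 listed markers 6 were matched, and their summed level was 2.3 and 55.9 FPKM in the 3 and 5 DAP kernels. The list also held tcrr1, unmatched under that spelling, so tcrr-1 is not in the sum. In endosperm it was 1064, 1037, 1059, 718.4, 335.3, 154.6, 128.8 and 54.8 FPKM from 7 to 25 DAP, and in leaf 0.1. The largest parts at 7 DAP were betl10 at 521.9 FPKM and betl2 at 316.5. Of the 6, 5 fell in the same test, against 37.4% of all genes tested. Slopes were -0.379 for betl2, -0.207 for betl1 and -0.063 for betl3. The betl4 gene was not called (adjusted p = 0.074). From 15 to 20 DAP betl1 went from 31.52 to 32.23 FPKM, betl3 from 2.65 to 4.02 and betl4 from 12.79 to 25.0. The other matched markers and the pair were lower at 20 DAP than at 15 DAP. None of the 6 was listed at 0 in an endosperm library, and betl2, betl3, betl4 and meg1 were listed at 0 in leaf. The part of these cells in the change of the pair was not tested.

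**Figure D4:**
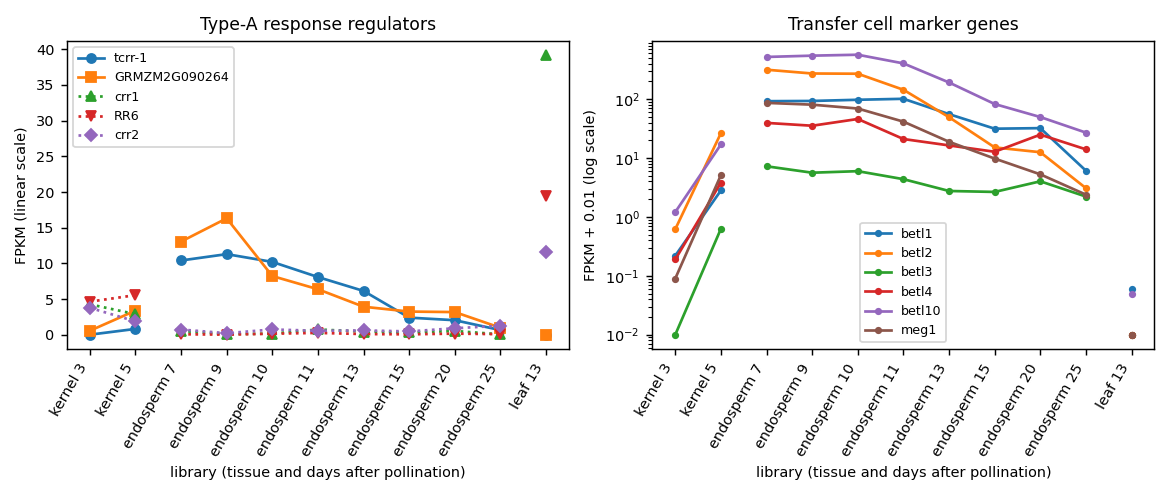
Left, FPKM of 5 type-A regulators in each library (linear axis; solid lines for the endosperm pair, dotted for crr1, RR6 and crr2). Right, FPKM + 0.01 of 6 transfer cell markers (log axis). Points are single libraries, joined within a tissue. The pair is highest at 7 to 10 DAP and listed at 0 in leaf, where every marker is at or under 0.05 FPKM, while crr1, RR6 and crr2 are highest in leaf at 39.2, 19.4 and 11.6 FPKM.

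Of the remaining type-A genes, 3 were highest in leaf by a wide margin. The highest of all 74 genes was crr1 (GRMZM2G040736), an ARR5 match named as a cytokinin response regulator, at 39.2 FPKM in leaf. It stood at 4.26 and 2.88 FPKM in kernels and between 0.05 and 0.73 in endosperm. RR6 (GRMZM2G129954), an ARR9 match, stood at 19.4 FPKM in leaf, 4.63 and 5.54 in kernels, and between 0.01 and 0.25 in endosperm. The gene crr2 (GRMZM2G392101), also an ARR9 match, stood at 11.6 FPKM in leaf, 3.77 and 1.87 in kernels, and between 0.21 and 1.25 in endosperm. In all 3 genes leaf lay above both kernels and the kernels above all 8 endosperm libraries. Their leaf to 13 DAP endosperm ratios were 4.80, 4.23 and 2.97 on the log2(FPKM + 1) scale, against -2.83 for tcrr-1 and -2.30 for GRMZM2G090264.

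RR4 (GRMZM2G319187), an ARR8 match, was the third type-A gene tested. It stood at 5.67 and 5.11 FPKM in kernels, 5.92 in leaf, 1.99 at 7 DAP and 0.31 at 25 DAP. It fell (slope -0.061 ± 0.018 SE, adjusted p = 0.020), but not after quantile normalization (0.10) or with 20 and 25 DAP left out (0.11). Without 7, 10 or 11 DAP its mean was under 1 FPKM and it was not tested. GRMZM2G148056, an ARR9 match, stood at 4.05 and 4.11 FPKM in kernels, 0.85 at 7 DAP and at most 0.14 later, and was listed at 0 in leaf, so it was a kernel gene without the leaf level. The gene abph1 (GRMZM2G035688), which controls leaf arrangement in the maize shoot apex, was listed at 0 in 10 of the 11 libraries and at 0.02 FPKM at 7 DAP. The other 5 type-A genes peaked between 0.52 and 3.18 FPKM, all in kernel or leaf. RR4, GRMZM2G148056 and abph1 were picked with their values known.

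Type-B response regulators are the DNA-binding activators. RR10 (GRMZM2G126834), an ARR2 match, was the highest, at 3.87 and 4.32 FPKM in kernels, 3.74, 4.40, 4.81, 5.73, 5.34, 4.35, 4.50 and 7.53 FPKM from 7 to 25 DAP, and 3.75 in leaf. All libraries except 25 DAP lay between 3.74 and 5.73 FPKM. RR10 had no call as deposited (slope 0.029 ± 0.015 SE, adjusted p = 0.15), but rose after quantile normalization (0.013) and upper quartile scaling (0.011). RR8 (GRMZM2G099797), another ARR2 match, stood between 2.12 and 3.67 FPKM over all 11 libraries.

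RR9 (GRMZM2G060485), an ARR18 match, was the type-B gene that rose, and was chosen after its values were seen. It stood at 4.64 and 2.01 FPKM in kernels, at 0.41, 0.31, 0.22, 0.24, 0.46, 0.34, 2.01 and 5.84 FPKM from 7 to 25 DAP, and at 5.97 in leaf. The rise lay in the 20 and 25 DAP libraries, which were above the 6 earlier ones. The slope was 0.133 ± 0.023 SE (adjusted p = 0.0025; 0.0017 to 0.0096 in the 13 settings that tested it). Without the 25 DAP library its mean was under 1 FPKM and it was not tested, so its call needs that library. A second ARR18 match, GRMZM2G133262, was too low for the test, at 1.25, 0.20, 1.78 and 2.34 FPKM on days 7, 11, 20 and 25.

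Several type-B genes were listed at 0 in the 3 DAP kernel and in leaf, and those of them that reached 1 FPKM were GRMZM2G401835 and GRMZM2G401821. GRMZM2G401835, an ARR2 match, stood at 0.22 FPKM in the 5 DAP kernel, and at 3.19, 2.11, 1.49, 0.96, 0.64, 1.08, 1.25 and 1.32 FPKM from 7 to 25 DAP. It was lower in both kernels than in every endosperm library, and highest at 7 DAP. The linear test did not call it (adjusted p = 0.33), and its curved call (0.040) ended in 9 of 16 settings, with 0.31 without 7 DAP. Without 20 and 25 DAP the slope was -0.145 and the linear test called a fall (adjusted p = 0.041). GRMZM2G401821, an ARR10 match, stood at 0.46 FPKM in the 5 DAP kernel, 2.19 at 7 DAP and 0.34 at 11 DAP. In contrast GRMZM2G177220, an ARR11 match, stood at 7.47 and 6.21 FPKM in kernels and between 0.07 and 0.43 in endosperm. The other 9 type-B genes peaked between 0.19 and 5.63 FPKM. These genes, too, were picked with their values known.

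The type-C regulator GRMZM2G460594, an ARR24 match of a group that lacks an output domain, was a kernel gene. It stood at 14.8 and 10.8 FPKM in kernels, at 0.99, 0.05, 0.38, 0, 1.82, 2.80, 0.72 and 0.28 FPKM from 7 to 25 DAP, and at 0.31 in leaf. The kernels were above every other library, and within endosperm 13 and 15 DAP were the highest. It missed the filter on mean FPKM and was not tested. The second type-C gene, GRMZM2G308046, did not exceed 0.55 FPKM.

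Cytokinin response factors are AP2/ERF transcription factors, some of them induced by cytokinin, and 4 of the 6 were expressed, the other 2 peaking at 0.18 and 0.21 FPKM. GRMZM2G142179, a CRF2 match, stood at 0.50 and 0.73 FPKM in kernels, at 10.0, 3.58, 8.85, 3.38, 1.09, 1.07, 0.33 and 0.08 FPKM from 7 to 25 DAP, and at 1.12 in leaf. It was high at 7 and 10 DAP, lower at 9 DAP between them, and lowest at 25 DAP. It fell (slope -0.185 ± 0.033 SE, adjusted p = 0.0026), and did so in all 16 alternative settings (0.00081 to 0.015). As deposited this was the steepest fall of the 25 tested genes. At a pseudocount of 5 its slope was -0.082, against -0.093 for tcrr-1 and -0.091 for GRMZM2G090264. The CRF4 matches GRMZM2G105266 and GRMZM2G044077, chosen after their values were seen, also fell. GRMZM2G105266 stood at 4.39, 2.13, 5.38 and 0.32 FPKM on days 7, 9, 10 and 25 (slope -0.113 ± 0.022 SE, adjusted p = 0.0036, but 0.20 without 20 and 25 DAP). GRMZM2G044077 stood at 5.68, 1.0, 1.89 and 0.05 FPKM on those days (slope -0.109 ± 0.032 SE, adjusted p = 0.021, but not called without 20 DAP, where it rounds to 0.05). Without 7 DAP the mean of GRMZM2G044077 was under 1 FPKM and it was not tested.

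GRMZM2G171569, a CRF3 match, followed no steady course over endosperm. It stood at 12.8 and 8.79 FPKM in kernels, at 11.5, 0.92, 4.85, 3.70, 1.65, 3.52, 8.32 and 0.08 FPKM from 7 to 25 DAP, and at 17.6 in leaf. It was high in both kernels, at 7 and 20 DAP and in leaf, and low at 9 and 25 DAP. It was not called by either test (adjusted p = 0.26 and 0.41), and its slope of -0.084 turned to 0.027 without 25 DAP. Without 9 and 25 DAP it passed the curved test (0.0068), but that setting drops its lowest endosperm libraries. In every other setting the adjusted p of the curved test was between 0.10 and 0.59.

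**Figure D5:**
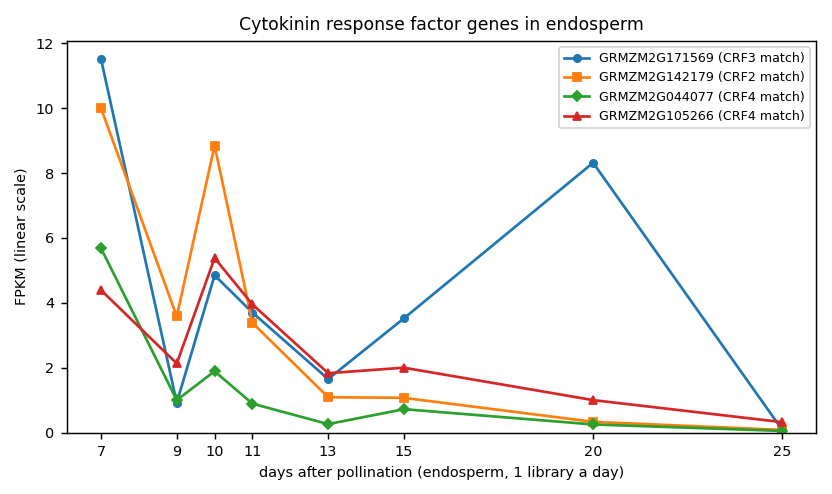
FPKM (linear axis from 0) of the 4 expressed cytokinin response factor genes against days after pollination in endosperm, 1 library a day. All 4 lines are lower at 9 DAP than at 7 and 10 DAP, 3 of them are at or under 1.0 FPKM at 20 DAP, and GRMZM2G171569 alone reaches 8.32 FPKM there.

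The low 9 DAP values were looked at over the table after the data were seen. Of 29 genes of the 74 with at least 1 FPKM at 7, 9 or 10 DAP, 3 were at least 2-fold lower at 9 DAP than at both neighbours (10.3%, against 4.25% of all genes). They were GRMZM2G171569, GRMZM2G142179 and CKX10. The opposite, at least 2-fold higher at 9 DAP, held for 0 of the 29 and for 0.147% of all genes. The 9 DAP library had 14333 genes of at least 1 FPKM, against 15836 at 7 DAP and 15674 at 10 DAP. With 1 library a day, a stage and its library cannot be told apart.

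The 5 further genes have cytokinin in the name of their Arabidopsis match by a mutant phenotype or an expression response. The 2 matches of CIN4, also known as COP10, a ubiquitin-conjugating enzyme variant of light signalling, and the 2 of CKH1, a TFIID subunit of the TAF12 type, were expressed in every library. GRMZM2G072506, a CIN4 match, stood at 8.49 and 5.77 FPKM in kernels, between 1.85 and 4.36 in endosperm and at 4.70 in leaf. None of the 4 was called in endosperm as deposited by limma (unadjusted p between 0.13 and 0.94). GRMZM2G002276, a CKH1 match, was called as rising after quantile normalization (adjusted p = 0.026) and upper quartile scaling (0.045). The fifth, a match of the GATA factor CGA1, did not exceed 0.72 FPKM, its leaf value.

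Other genes of the pathway were counted from a list of activation, transport, conjugation and response genes that held 40 identifiers outside the 74. Of 12 tested, 1 rose and 5 fell, with a median slope of -0.030 per day, and 8 passed the curved test. Over all genes tested 10.3% rose, 37.4% fell and 54.4% passed the curved test, with a median slope of -0.034. Adenosine kinase, which can convert cytokinin ribosides to nucleotides besides its role in adenosine recycling, gave 3 of the falls. The adenosine kinase match GRMZM2G540538 stood at 78.6 FPKM at 7 DAP and 12.7 at 25 DAP (adjusted p = 0.0012), GRMZM2G092923 at 32.8 and 2.95 (0.00066), and GRMZM2G135132 at 31.4 and 1.27 (0.00084). A further match, GRMZM2G089767, stood at 1.60 FPKM at 7 DAP and 13.5 at 13 DAP, with no linear call as deposited (0.054), a curved call (0.0025) and a linear rise after both scalings (0.027 and 0.026). The purine permease match GRMZM2G069016, of a family that carries cytokinin bases, stood at 35.4 and 46.9 FPKM in kernels, 41.6, 10.6 and 7.27 on days 7, 9 and 25 in endosperm, and was listed at 0 in leaf (adjusted p = 0.14).

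LONELY GUY enzymes release the active base from the nucleotide. The LOG4 match GRMZM2G059392 stood at 23.7 FPKM in leaf and at most 1.54 elsewhere. The LOG8 match GRMZM2G008726, at 3.00 FPKM at 7 DAP and 0.13 at 25 DAP, fell (adjusted p = 0.0098), as did GRMZM2G161382, a match of cyclin D3;2, of a cell cycle family linked to cytokinin in Arabidopsis, at 3.68 and 0.09 FPKM (0.0077). Among the pseudo-response regulators, clock proteins without the phosphate-accepting residue, GRMZM2G367834 was at 2.29 FPKM in 7 DAP endosperm and 6.28 at the last stage and rose (adjusted p = 0.021), but not without 25 DAP (highest adjusted p over settings 0.57). GRMZM2G179024 was the highest of these, at 99.6 FPKM in leaf and between 3.08 and 11.1 in endosperm.

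Libraries of different tissues or kernel stages were compared without a test, and genes at least 2-fold apart on the log2(FPKM + 1) scale were counted among those with at least 1 FPKM in either library. From 3 to 5 DAP in whole kernels, 3 of 42 genes were higher (7.14%, against 1.57% of all genes) and 1 was lower (2.38%, against 2.35%). The higher genes were GRMZM2G090264, GRMZM2G084462 and the ARR12 match GRMZM5G884914, and the lower was GRMZM2G105266. From the 5 DAP kernel to 7 DAP endosperm, 22 of 47 were lower (46.8%, against 28.3%) and 8 higher (17%, against 11.0%), with a median ratio of -0.91 against -0.41 for all genes. Those higher were tcrr-1, GRMZM2G090264, the response factors GRMZM2G142179, GRMZM2G044077 and GRMZM2G105266, the regulators GRMZM2G401835 and GRMZM2G401821, and the isopentenyltransferase GRMZM2G025429.

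Of the 50 genes that reached 1 FPKM, 27 were higher in both kernels than in every endosperm library (54.0%, against 42.4% of all genes), and 13 of these by at least 2-fold. The share over all genes was not counted for the 2-fold gap. The reverse held for 1 of the 50 (2.0%, against 5.2%). Between leaf and endosperm at 13 DAP, 17 of 36 genes were at least 2-fold higher in leaf (47.2%, against 34.9%) and 3 lower (8.33%, against 18.8%), with a median ratio of 0.97 against 0.33 for all genes. The 3 lower genes were tcrr-1, GRMZM2G090264 and GRMZM2G460594. Leaf was above all 10 kernel and endosperm libraries for 13 of the 50 (26.0%, against 23.3%) and below all of them for 5 (10.0%, against 20.6%). These 5 were GRMZM2G090264, the isopentenyltransferases GRMZM2G025429 and GRMZM2G084462, ckx1 and the ARR12 match GRMZM2G360523.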

How the data were processed

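FPKM values of 11 libraries, calculated by the authors and rounded to 2 decimals, were used as deposited. The tools named in the submitters' processing notes are cutadapt, TopHat2 and edgeR. How fragments were counted, and on which genome build and annotation, is not given in the sources used here. Read counts were not recovered from the rounded values, so depth and counting intervals are unknown. Of the 74 genes, 43 matched a RefSeq synonym in a table of the assembly Zm-B73-REFERENCE-NAM-5.0, from which only names were taken. No gene sequences were used here, so a planned promoter motif search was not run.

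Values were analysed as log2(FPKM + 1), which understates the change of low genes. Slopes and curved changes over the 8 endosperm libraries (6 and 5 residual degrees of freedom) were fitted with limma 3.58.1 in R 4.3.3 (trend option), two-sided, with Benjamini-Hochberg adjustment over the 15149 genes averaging 1 FPKM or more there. Libraries of different days are not replicates, and departures from the fitted line are the error. The script was tested on simulated data. Single libraries were compared without a test.

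The genes, lists and classes were chosen with earlier results of these data known. Named were genes of at least 10 FPKM in a library, called genes averaging 3 FPKM or more over endosperm, and the highest gene of each class; others are marked. Marker symbols that belong to an unrelated gene (mrp1, a second glb1) were left out. Non-overlap between tissues and the 9 DAP comparison were added after seeing the data. Alternatives were other pseudocounts, scalings, filters, time scales and left-out libraries.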

Additional observations from a re-analysis of the deposited data

How the results depend on the processing

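Of the linear calls, those of tcrr-1, GRMZM2G090264 and GRMZM2G142179 held in all 16 alternative settings. The count of falling genes among the 74 stayed within 1.5 times of 8 in each setting, but the genes called were not always the same. Without 20 and 25 DAP 28 genes were tested and 6 fell, of which only 4 were among the 8. The count of rising genes was 5 without the filter, 6 with quantile normalization, 5 with upper quartile scaling, 1 without 20 and 25 DAP and 0 without 9 and 25 DAP, and 0 to 2 on leaving out 1 library. The 0 came without 25 DAP and the 1 without 7 DAP. Curved calls fell to 4 without 20 and 25 DAP. Over all genes, rises were 3097 with quantile normalization and 2760 with upper quartile scaling. Falls over all genes were 3215 after quantile normalization and 3602 without 20 and 25 DAP, where 2538 were called as curved.

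On leaving out 1 library the slope lay between -0.142 and 0.027 for GRMZM2G171569, -0.006 and 0.032 for HK1b1, -0.005 and 0.012 for GRMZM2G002276, -0.038 and 0.011 for GRMZM2G479110, -0.033 and 0.003 for GRMZM2G360523, -0.025 and 0.005 for RR8, -0.011 and 0.044 for GRMZM2G113396, and -0.007 and 0.005 for GRMZM2G149230. Slopes below 0 as deposited turned with quantile normalization to 0.007 for GRMZM2G072506 and 0.006 for GRMZM2G401835. With quantile normalization and with upper quartile scaling they turned to 0.018 and 0.002 for GRMZM2G479110, 0.029 and 0.013 for GRMZM2G360523, 0.031 and 0.022 for RR8, 0.034 and 0.021 for GRMZM2G113396, and 0.033 and 0.023 for GRMZM2G149230. Without 20 and 25 DAP they were 0.021 for GRMZM2G479110, 0.078 for GRMZM2G113396, 0.022 for GRMZM2G149230 and -0.013 for GRMZM2G002276. Without 9 and 25 DAP they were 0.016 for GRMZM2G479110, 0.043 for GRMZM2G113396 and -0.008 for GRMZM2G002276. On log2 of the day, per doubling of age, they were 0.04 for GRMZM2G113396 and 0.007 for GRMZM2G149230. None of the slopes that reversed was called. Without 20 and 25 DAP, HK1b1 at 0.13 and GRMZM2G401835 at -0.145 gained a call in their own direction. Of the slopes of all 25 tested genes refitted under each setting, 336 kept direction and side of the threshold, 11 lost the call, 11 gained one and 34 reversed.

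At 4-fold, 8 genes were higher in leaf than in 13 DAP endosperm. At 4-fold, 2 were higher and 5 lower at 7 DAP than in the 5 DAP kernel, and 0 were higher and 0 lower between kernels, where a pseudocount of 0.5 gave 2 lower. A gap of at least 2-fold left 13 genes higher in both kernels, 0 lower in both kernels, 6 highest in leaf and 0 lowest in leaf. Without the filter 2 were lower in both kernels, 20 highest in leaf and 8 lowest in leaf. At 4-fold, 0 were low at 9 DAP. The gap and 9 DAP settings were chosen after seeing the data. The shares over all genes were not counted at these settings, so these counts cannot be read against the whole table. The causes of these shifts were not tested.

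No paired analysis was possible because each stage had 1 library. Levels near 0.01 FPKM, the smallest value listed above 0, rest on very few fragments, and unknown depth limits what can be said of the 24 genes under 1 FPKM.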
